A study of Mus musculus with 96 samples.

Results

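Ephrins, semaphorins and their receptors were followed in a pull-down of astrocyte ribosomes from the mouse striatum. Genes were taken by symbol alone: ephrins (Efna, Efnb), Eph receptors (Epha, Ephb), semaphorins of classes 3 to 7, plexins (Plxn) and neuropilins (Nrp). This gave 53 of the 24060 gene entries in the files. They were 5 ephrin-A and 3 ephrin-B ligands, 9 EphA and 5 EphB receptors, 7 class 3, 6 class 4 and 7 class 5 to 7 semaphorins, 9 plexins and 2 neuropilins.

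Ephrins are ligands held on the cell surface, so that they signal where cells touch. Ephrin-A ligands sit on a lipid anchor and mainly bind EphA receptors, ephrin-B ligands span the membrane and mainly bind EphB receptors, and Epha4 accepts both kinds. The Eph receptors are tyrosine kinases that signal into their own cell, and the ephrin can signal back into the cell that carries it. Class 3 semaphorins are secreted and act through neuropilins joined to A-type plexins, while semaphorins of classes 4 to 7 stay on the membrane and mostly bind plexins directly. Plexins act on small GTPases and through them on the cytoskeleton and on adhesion. These families are best known for steering growing axons, and in the adult brain they also act at synapses, in contacts of astrocytes with neurons, in vessels and in glial scars.

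RNA was sequenced in 96 libraries from the striatum of 48 mice, with 4 treated and 4 control mice in each of 6 experiments. Per the labels, all mice carried an AAV that gave their striatal astrocytes an HA-tagged ribosomal protein, Rpl22, for 3 weeks. Each mouse gave an IP library, made from the RNA pulled down with the tagged ribosomes (the RiboTag method), and an input library, made from the cleared lysate of the whole tissue. The experiments ask how astrocytes respond to different injuries and signals.

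In the QA experiment C57BL/6 mice received quinolinic acid (30 nM in the labels), an excitotoxin given to ablate medium spiny neurons, or vehicle into the striatum 2 weeks before collection. In the LPS experiment C57BL/6 mice received the bacterial endotoxin lipopolysaccharide (5 mg/kg) or vehicle intraperitoneally 24 h before. In the Kcnj10 experiment Kir4.1flox/flox mice, in which the gene of the potassium channel Kir4.1 can be cut by Cre, received AAV5-GfaABC1D-Cre or AAV5-GfaABC1D-TdTomato into the striatum, and GfaABC1D is an astrocyte promoter. In the Itpr2 experiment mice labelled Itpr2-/-, for the type 2 receptor of inositol trisphosphate, were compared with Itpr2+/+ littermates. In the last experiments C57BL/6 mice carried a designer receptor in striatal astrocytes, rM3Ds (coupled to Gs and carried by an AAV with the GfaABC1D promoter) or hM3Dq (its carrier is not stated), and received its agonist CNO (1 mg/kg) or vehicle intraperitoneally. For rM3Ds the tissue was taken 2 h after CNO, and no time is stated for hM3Dq. No group without a receptor received CNO. Ages were not stated. Sex, read from Xist and Y-linked genes, differed between the arms of the QA experiment (3 of 4 QA mice and 0 of 4 vehicle mice were male) and of the Itpr2 experiment (0 of 4 and 1 of 4 male).

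Values are FPKM, reads scaled to gene length and to the depth of the library, as deposited, so that levels of different genes can be compared per length. Changes are log2 ratios with their standard errors, fitted with limma on FPKM rescaled between libraries (TMM factors) after adding 0.1, and a ratio of the printed FPKM can therefore differ somewhat from the fitted one. Means of FPKM are given ± SD, over 4 mice unless another n is stated. A gene was tested in a comparison if 4 or more of its libraries held 0.5 FPKM or more. A gene was called, and is said to have risen or fallen, at a Benjamini-Hochberg adjusted p below 0.05 over all genes tested. Most genes printed with values within an experiment were picked among called genes whose arms did not overlap. For them the statement that the arms were apart follows from that choice and adds no support. Beside the count of called genes over all these families in a comparison stands the share of all tested genes called in that direction, as background. Counts by role are to be read beside that share. Counts in the lists of partners and of cell markers are given without it. They too are to be read beside the share of the same comparison. Counts under other settings carry counts over all genes only where these are printed. Epha1 was too low for any test, Efna4 was tested only in QA IP and in the comparison of QA IP with input, Sema3g was tested in no IP comparison within an experiment, Sema3b was tested in input only in the QA experiment, and Epha2 was not tested in IP of the LPS, Itpr2 and rM3Ds experiments.

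The libraries held 42482787 to 82256165 reads in genes for IP and 14738821 to 51033642 for input, recovered from the deposited values. The labels name astrocytes for all libraries, but in the 24 control mice it was IP that was enriched for them: 13 of 13 astrocyte markers were higher than in input (median log2 ratio 2.76). Of the markers of other cells, 12 of 12 for microglia, 10 of 10 for endothelium and 13 of 13 for medium spiny neurons were lower in IP, whereas 9 of 10 for striatal interneurons and 6 of 6 for ependymal cells were higher. Kcnj10 lay at 142 to 164 FPKM in TdTomato IP libraries and at 27.9 to 36.1 in Cre IP libraries. The Itpr2 level was no lower under the Itpr2-/- label (11.4 ± 1.77 FPKM in wild type and 11.9 ± 1.82 in knockout IP, SD, n = 4), so these are named by their label. Over all genes LPS mouse 2 stood apart: on an axis set at 0% by the mean of vehicle mice and at 100% by that of LPS mice it lay at 50.7% in IP and 57.7% in input, and the other LPS mice at 113 to 120% in IP and 111 to 118% in input.

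The promoters of the receptor gene Epha2 and of the membrane semaphorin gene Sema4c are printed because these genes changed in several experiments. RefSeq (build GRCm38.p6) lists a promoter for 47 of the 53 genes, here as 250 bases before and 50 bases after the transcription start. The Epha2 window is chr4:141300971-141301270 on the + strand, and capitals mark TGACGTCA, the cAMP response element. The Sema4c window is chr1:36558332-36558631 on the - strand, and capitals mark a match to TGANTCA, the element of AP-1 factors such as Fos and Jun. It is the one of 2 promoters listed for this gene that holds a match, and the other, without a match, is left aside.
Epha2: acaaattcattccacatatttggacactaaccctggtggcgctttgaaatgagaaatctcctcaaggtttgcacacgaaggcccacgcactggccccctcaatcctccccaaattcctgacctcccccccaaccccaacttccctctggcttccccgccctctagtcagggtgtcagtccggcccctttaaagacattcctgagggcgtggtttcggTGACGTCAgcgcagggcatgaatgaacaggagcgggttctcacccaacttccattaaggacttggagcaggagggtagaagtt
Sema4c: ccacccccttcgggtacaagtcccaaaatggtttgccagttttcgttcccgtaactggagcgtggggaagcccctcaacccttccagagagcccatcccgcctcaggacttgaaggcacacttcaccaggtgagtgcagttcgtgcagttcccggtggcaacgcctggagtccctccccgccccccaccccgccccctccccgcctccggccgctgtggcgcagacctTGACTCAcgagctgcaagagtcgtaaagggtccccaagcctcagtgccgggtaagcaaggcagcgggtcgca
Searched on both strands, TGACGTCA stood in 588 of 32851 promoters (1.79%). Among the 61 promoters of the 47 genes it stood in 1, that of Epha2, where it lies 26 to 33 bases upstream of the start. TGANTCA stood in 2565 promoters (7.81%) and in 3 of the 61, of Sema4c, Sema4d and Sema6b, and in Sema4c it lies 16 to 22 bases upstream. Exact matches of these motifs cannot overlap each other. These are matches of letters and say nothing about binding.

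In control mice the receptors of semaphorins and of ephrin-Bs were mostly higher in IP than in input, and the ephrins were mostly lower. Markers of striatal interneurons and ependymal cells were higher in IP as well, and RNA of other cells remained in it. Which cells gave the IP signal of a gene was not tested. Of 51 genes tested, 24 were higher and 22 lower in IP than in input, against a background of 42.9% of all genes higher and 45.8% lower. Plexins were 7 higher and 2 lower of 9 (median log2 ratio 0.70), EphB receptors 4 and 1 of 5 (0.81), class 4 semaphorins 4 and 2 of 6 (0.52), class 5 to 7 semaphorins 4 and 2 of 7 (0.40), and both neuropilins were higher. Ephrin-A ligands were 0 higher and 3 lower of 4, ephrin-B ligands 0 and 3 of 3, EphA receptors 1 and 5 of 8 (-0.35) and class 3 semaphorins 2 and 4 of 7. The median over the tested genes was 0.10, beside -0.04 over all genes. Without TMM scaling the counts were 22 higher and 25 lower (all genes 4900 and 9051, 35.1% of the called ones higher in place of 48.4%, with a median of -0.24). None of the named ratios changed sign with it.

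The steepest ratio belonged to Plxnb1, the plexin that binds Sema4d. It lay between 5.34 and 9.84 FPKM in the 24 input libraries (median 6.77) and between 24.6 and 57.6 in the 24 IP libraries (median 33.4), a log2 ratio of 2.60 ± 0.07 (adjusted p = 3.05e-23). No input library reached the level of any IP library. The related Plxnb2 followed with 11.99 ± 1.39 FPKM in input and 34.2 ± 8.61 in IP (SD, n = 24, log2 1.69 ± 0.06). The A-type plexins Plxna1 (log2 1.56) and Plxna3 (1.3), which pair with neuropilins, were higher in IP as well. Among the Eph receptors Ephb3 was the most enriched, from 1.63 ± 0.293 FPKM in input to 5.7 ± 1.42 in IP (log2 1.94 ± 0.07). The membrane semaphorins Sema4b (log2 1.83), Sema6a (1.48) and Sema6d (1.39) complete the 8 highest ratios, and in all 8 genes the IP and input ranges were apart.

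At the other end, among genes above 1 FPKM, stood Efna3, the ephrin-A3 known from work on the mouse hippocampus as an astrocyte ligand of the neuronal receptor Epha4. Its level was 27.2 ± 3.63 FPKM in input and 8.42 ± 1.68 in IP, a log2 ratio of -1.48 ± 0.05 (adjusted p = 2.77e-20), and the ranges did not overlap. The secreted Sema3f (log2 -1.20), the EphA receptors Epha8 (-0.87) and Epha7 (-0.61), Plxnd1, the receptor of Sema3e (-0.70), Efnb2 (-0.66), Sema6b (-0.65) and the kinase-inactive receptor Ephb6 (-0.62) were also lower, with overlapping ranges only for Epha8 and Ephb6 among these. Epha4 had the highest IP level of all 53 genes, 63.1 ± 11.2 FPKM, and was not called against its input level of 75.3 ± 4.45. Next in IP came Plxnb1, Plxnb2 and Sema6d with means of 38.3, 34.2 and 31.6 FPKM, levels that overlap between mice. Epha1 (0.0541 FPKM), Sema3g (0.102) and Epha2 (0.281) were lowest. The IP mean of Epha2 differed 34.6-fold between the control groups of the 6 experiments, from 0.0263 to 0.911 FPKM, which was the widest range of the tested genes, so its changes are read within an experiment only.

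**Figure D1:**
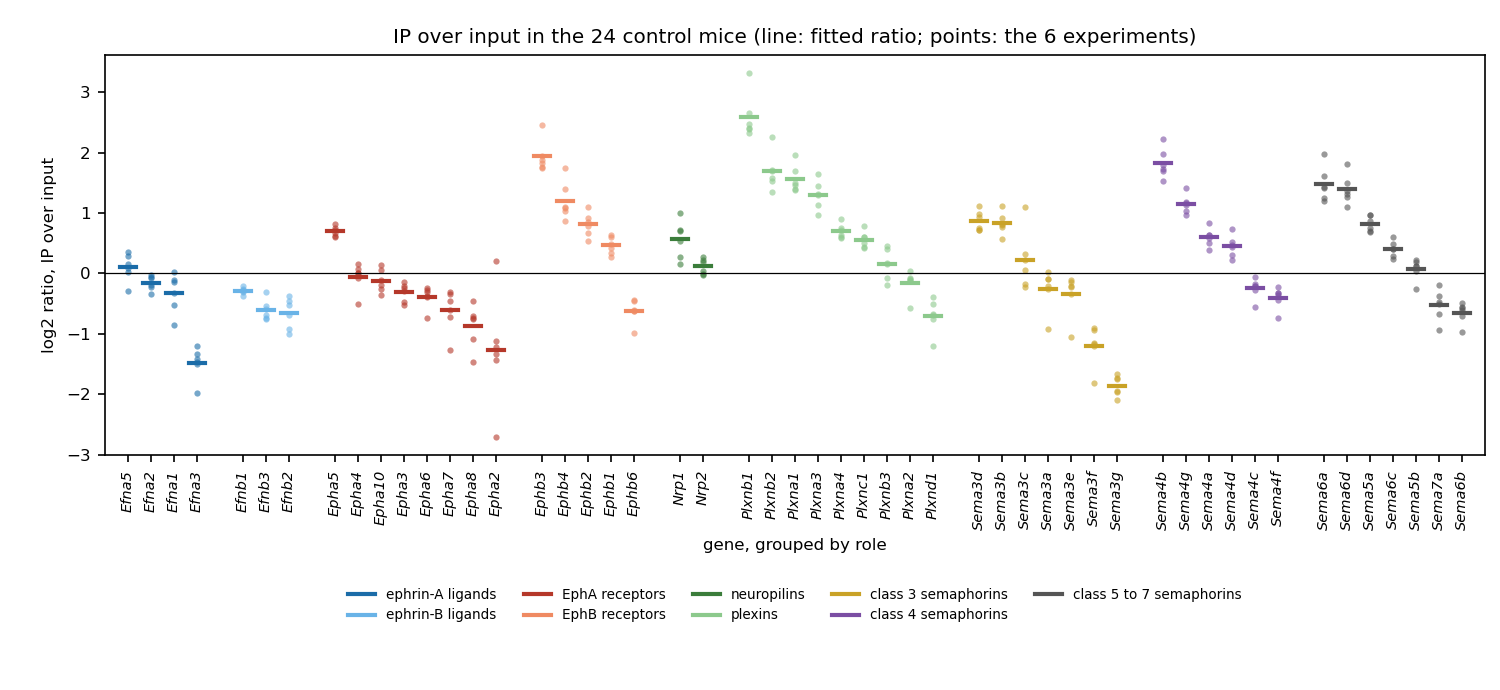
Log2 ratio of IP over input in control mice for each tested gene, grouped by role: horizontal lines are the fitted ratios over 24 mice and points are the ratios within the 6 experiments (4 mice each). Plxnb1 stands highest at 2.60, and all ephrin lines lie below or near 0, down to Efna3 at -1.48.

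Partners of these pathways were counted from 3 lists. In control mice 26 of 34 tested signalling partners of plexins and neuropilins were higher in IP and 5 lower, among them the exchange factor Farp1 (log2 2.35, 5.86 ± 0.793 FPKM in input and 26.9 ± 7.63 in IP). Of 30 partners of Eph receptors and ephrins 16 were higher and 12 lower, led by the exchange factor Arhgef19 (log2 2.45). Of 19 genes of the netrin, Slit and repulsive guidance molecule families 9 were higher and 7 lower, with Rgma (log2 2.23) the most enriched.

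After QA most of these genes changed: EphA receptors fell, and plexins of the B type, neuropilins and class 4 semaphorins rose. In IP 25 of 51 tested genes were higher and 21 lower, where 35.5% and 38.5% of all genes were called, and in input 23 of 51 were higher and 20 lower, where 34.8% and 38.5% were called. The arms did not overlap in 24 of the 25 and 20 of the 21 in IP, and the share without overlap was not counted over all called genes. EphA receptors were 1 higher and 7 lower of 8 in IP (median log2 -1.56) and 1 and 6 of 8 in input (-0.61). Plexins were 6 higher and 3 lower of 9 in IP and 6 and 2 in input, class 4 semaphorins 4 and 1 of 6 and 5 and 1, EphB receptors 3 and 1 of 5 and 3 and 2, and both neuropilins were higher in both fractions. Class 3 semaphorins were 1 higher and 3 lower of 6 in IP and 2 and 3 of 7 in input, ephrin-A ligands 3 and 2 of 5 and 1 and 2 of 4, ephrin-B ligands 1 and 1 of 3 and 0 and 2, and class 5 to 7 semaphorins 4 and 3 of 7 and 3 and 2. The median over the genes in IP was 0.19, beside -0.02 over all genes. Without TMM scaling 58.6% of all called genes in input were higher in place of 47.5%, and 23 of the families were higher and 19 lower.

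Cell markers moved in the same libraries, and in bulk RNA fewer cells of a type and less RNA per cell cannot be told apart. In input 12 of 13 markers of medium spiny neurons were lower (summed level 4733 to 4831 FPKM in vehicle and 1929 to 2117 in QA mice), 12 of 12 microglia markers were higher (1124 to 1309 and 6046 to 9064 FPKM), and so were 11 of 13 astrocyte markers (1597 to 1673 and 3082 to 3836 FPKM), 8 of 8 of oligodendrocyte precursors and 8 of 10 of endothelium. In IP 8 of 13 astrocyte markers were higher and 2 lower (6932 to 7852 and 10238 to 12413 FPKM), 13 of 13 medium spiny neuron markers were lower (2512 to 2615 and 394 to 595 FPKM), and 10 of 10 interneuron markers were lower. There 12 of 12 microglia markers (37.1 to 43.7 and 89.1 to 151 FPKM) and 10 of 10 oligodendrocyte markers (1705 to 1921 and 3457 to 4842 FPKM) were higher, as were 6 of 6 ependymal markers. No marker on these lists was at 0 in all libraries. Their part in the QA results was not tested. Sex coincides in part with treatment here, and with sex as a covariate 42 genes were called in IP and 39 in input.

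Among the EphA receptors the highest level belonged to Epha4. In IP it lay at 78.3, 77.7, 78.4 and 77.4 FPKM in the 4 vehicle mice and at 21.3, 22.04, 15.2 and 17.1 in the 4 QA mice, a fall of log2 -2.09 ± 0.10 to 0.234 of the vehicle level (adjusted p = 2.77e-07). The QA mice were far below all vehicle mice. In input the vehicle mice held 79.3, 79.5, 81.7 and 80.2 FPKM and the QA mice 34.9, 35.3, 31.5 and 33.1, a smaller fall of -1.38 ± 0.05 (adjusted p = 1.73e-08), again with no overlap, and the difference of -0.66 passed its own test (adjusted p = 9.36e-05). Epha6 went from 12.8, 11.8, 13.2 and 14.3 to 4.65, 3.96, 3.17 and 3.27 FPKM in IP (log2 -1.82 ± 0.11). Epha7 went from 10.2, 10.1, 10.8 and 11.4 to 3.95, 4.37, 2.48 and 2.37 FPKM (log2 -1.74 ± 0.18), and its QA mice fell into a higher and a lower pair. Epha8 (3.08 ± 0.297 to 0.858 ± 0.158 FPKM, log2 -1.78) and Epha10, an Eph receptor without kinase activity (1.62 ± 0.182 to 0.579 ± 0.0655, log2 -1.37), fell with them, all without overlap. In input Epha7 (log2 -1.17 ± 0.05) and Epha8 (-1.05 ± 0.08) fell too.

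Epha2 was the EphA receptor that rose, from a level near the limit of testing. Its IP values were 0.322, 0.259, 0.23 and 0.178 FPKM in vehicle mice and 1.59, 1.49, 1.29 and 1.63 in QA mice (log2 2.18 ± 0.16, adjusted p = 2.17e-06). The input libraries held 0.981, 0.796, 0.673 and 0.736 FPKM after vehicle and 3.17, 3.31, 3.68 and 4.45 after QA (log2 1.95 ± 0.15). The lowest QA mouse was above the highest vehicle mouse in both fractions. In IP only the QA libraries reached the 0.5 FPKM needed for testing, so the gene was tested there only because it was high in them. Because its vehicle level is close to the 0.1 FPKM added before the log, the IP fold of 4.54 becomes 1.98 with 1 FPKM added and 5.81 with 0.01, and the input fold of 3.86 becomes 2.45 with 1 FPKM. The falls of the low genes Epha8 and Epha10 in IP were likewise smaller with 1 FPKM added (to 0.447 and 0.596 of vehicle in place of 0.292 and 0.387).

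Of the EphB receptors Ephb2, a receptor of ephrin-Bs at excitatory synapses, rose most. It lay at 3.55, 2.87, 3.21 and 3.61 FPKM in vehicle IP and at 14.4, 15.6, 13.2 and 17.4 in QA IP, a 4.35-fold rise (log2 2.12 ± 0.10, adjusted p = 2.42e-07). All QA values were above all vehicle values. Its rise in input was smaller (log2 1.09), and the difference between the fractions of 1.10 passed its own test (adjusted p = 4.45e-05). Ephb4, best known as the venous receptor of Efnb2, rose from 2.46, 2.49, 2.18 and 2.34 to 4.97, 5.35, 4.81 and 5.87 FPKM in IP (log2 1.08 ± 0.08). Ephb3 had log2 -0.11 in IP and was not called.

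The ephrin-As split. Efna1, a ligand of Epha2, rose from 1.42, 1.37, 1.04 and 1.04 FPKM in vehicle IP to 2.68, 3.02, 3.33 and 3.11 in QA IP (log2 1.22 ± 0.13, adjusted p = 1.96e-05). Efna3 fell from 11.9, 10.7, 10.1 and 11.9 to 3.94, 3.54, 2.65 and 2.85 FPKM (log2 -1.80 ± 0.11), and in input from 30.7, 29.6, 29.5 and 28.4 to 14.7, 17.7, 16.2 and 11.03 (log2 -1.13). The arms were apart for both genes. The ephrin-B Efnb2 fell in IP (log2 -1.31), whereas Efnb3 rose in IP (0.48) and fell in input (-0.33).

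The steepest rise in IP belonged to the secreted semaphorin Sema3b. Vehicle mice held 0.848, 0.789, 0.875 and 0.968 FPKM and QA mice 7.19, 6.69, 5.48 and 6.56, a 6.6-fold rise (log2 2.72 ± 0.10, adjusted p = 9.65e-08) with a wide gap between the arms. With 1 FPKM added before the log in place of 0.1 this fold was 3.92. Sema3a, the classic ligand of Nrp1, went the other way, from 7.83, 6.64, 7.24 and 7.42 to 2.15, 2.67, 1.57 and 1.35 FPKM in IP (log2 -1.94 ± 0.17) and from 8.91 ± 0.382 to 4.6 ± 0.218 in input (log2 -1.06). Sema3d rose in input from 1.36, 1.26, 1.17 and 1.5 to 4.2, 4.28, 5.47 and 5.84 FPKM (log2 1.69 ± 0.13) but was not called in IP (0.54), and the difference of -1.09 between the fractions passed its test (adjusted p = 0.00134). Both receptors of class 3 semaphorins rose, and more in input than in IP (difference -0.78, adjusted p = 4.19e-05, for Nrp1 and -0.76, adjusted p = 0.00172, for Nrp2). Nrp1, also a co-receptor of VEGF in vessels, lay at 6.88, 7.19, 7.5 and 7.01 FPKM in vehicle input and at 31.5, 29.4, 23.6 and 32.6 in QA input (log2 1.88 ± 0.10, adjusted p = 1.51e-07), with log2 1.04 in IP. Nrp2 lay at 2.2, 2.13, 1.67 and 1.89 and 7.83, 7.09, 6.93 and 8.57 FPKM in input (log2 1.78 ± 0.11) and had 0.95 in IP. No QA mouse overlapped a vehicle mouse for either receptor.

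Membrane semaphorins and plexins mostly rose. Sema4d, the ligand of Plxnb1 that oligodendrocytes and immune cells also make, went from 10.03, 10.3, 9.99 and 10.4 to 30.9, 26.1, 22.3 and 36.3 FPKM in IP (log2 1.44 ± 0.13) and from 8.06, 7.72, 8.001 and 8.61 to 29.8, 28.5, 21.8 and 32.8 in input (log2 1.65 ± 0.12). Sema6a, a ligand of A-type plexins, went from 6.65, 6.01, 6.9 and 6.87 to 16.2, 13.5, 13.9 and 17.97 FPKM in IP (log2 1.16 ± 0.09). All QA mice were above all vehicle mice. Plxnb3, a receptor of Sema5a, rose in IP from 5.9, 5.71, 5.44 and 5.73 to 9.17, 12.9, 15.9 and 17.6 FPKM (log2 1.19 ± 0.18), and its QA mice were spread widely. Plxna2, a receptor of class 6 semaphorins, fell from 18.4, 17.7, 18.2 and 18.1 to 8.92, 9.22, 6.15 and 5.92 FPKM (log2 -1.31 ± 0.13). Plxnb2 rose in both fractions, by log2 0.87 in IP and 1.57 in input, where it went from 11.9 ± 0.265 to 38.9 ± 2.55 FPKM.

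**Figure D2:**
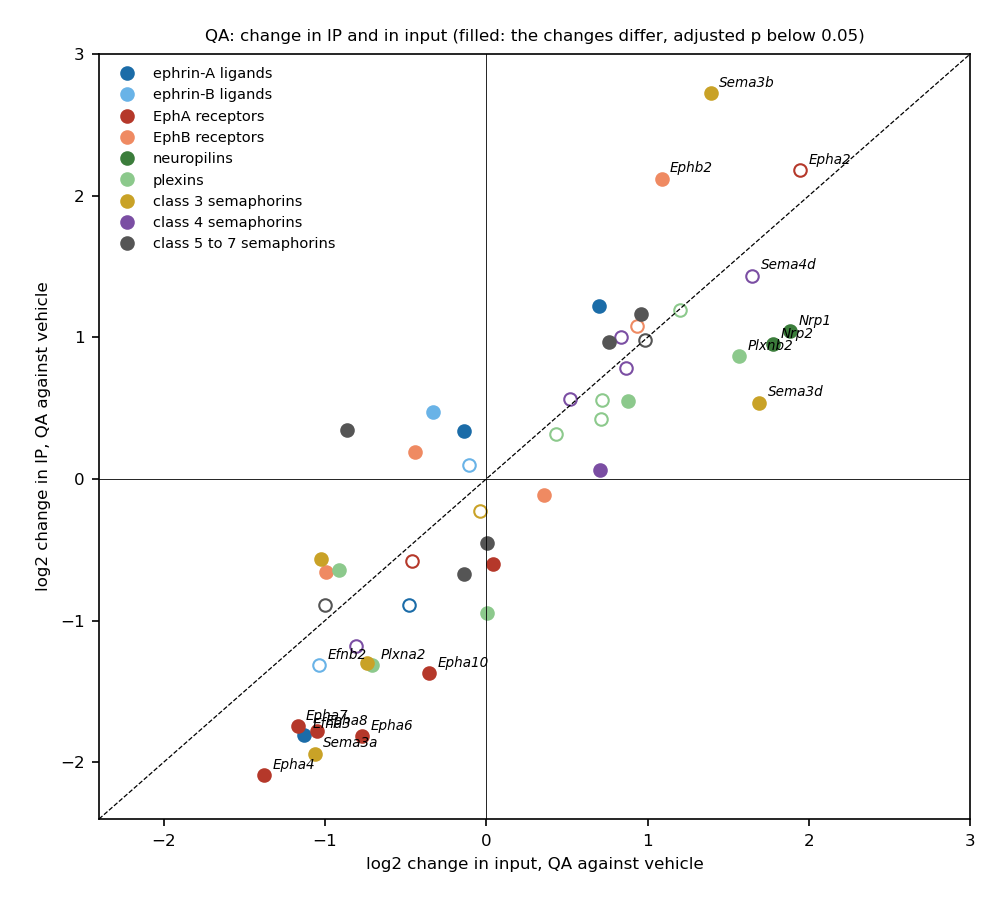
Log2 change after QA in input (x axis) and in IP (y axis) for each gene tested in both, coloured by role, with the dashed line marking equal changes and filled points marking genes whose changes differ between the fractions. Sema3b (2.72 in IP) lies farthest above the line on the right, both neuropilins lie below it, and the EphA receptors other than Epha2 sit at the lower left.

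The change in IP differed from that in input for 32 of 52 genes tested for it. It was higher in IP for 12 and lower for 20, where 22.3% and 24.7% of all genes differed. Sema7a, the lipid-anchored semaphorin that binds Plxnc1 and integrins, rose in IP (log2 0.35) and fell in input (-0.86), a difference of 1.27 (adjusted p = 3.06e-06). Without TMM scaling the split was 8 and 24 (all genes 1729 and 5466), and the median over all genes was then -0.15.

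The QA calls were also split by enrichment in the pull-down (IP over input), taken from the 20 control mice of the other 5 experiments, which share no library with the QA experiment. Of 23 genes higher in that pull-down, 17 rose and 3 fell in QA IP (73.9% and 13%), and of 22 lower in it, 6 rose and 15 fell (27.3% and 68.2%). Over all genes these shares were 50.3% and 26.2% for enriched genes and 18.7% and 54.1% for depleted ones. In QA input 19 of 23 enriched genes rose and 1 fell (82.6% and 4.35%), and 3 of 23 depleted genes rose and 17 fell (13% and 73.9%), beside 48.3%, 25.2%, 21.3% and 53% over all genes. A lean in the same direction was present over all genes, and whether these families differ from it was not tested.

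Partners in the cell changed in both directions, as did all genes (35.5% higher and 38.5% lower in QA IP). Whether the partners differ from all genes was not tested. In QA IP 13 of 30 partners of Eph receptors and ephrins rose and 15 fell, with Chn1, the chimaerin that relays Epha4 signals, going from 145 ± 1.80 to 34.4 ± 11.4 FPKM (log2 -2.17) and Ngef, the ephexin that EphA receptors activate, from 151 ± 4.35 to 52.7 ± 8.63 (-1.57). Of 34 partners of plexins and neuropilins 14 rose and 13 fell, among them L1cam, which binds Nrp1 (log2 -1.81), and Met, a receptor kinase that associates with B-type plexins (1.86). Of 17 netrin, Slit and repulsive guidance genes 5 rose and 10 fell, including Slit3 (log2 -2.0) and the netrin receptor Dcc (-1.67). In QA input the counts were 9 and 14 of 29, 14 and 9 of 34, and 7 and 8 of 19.

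After LPS fewer of these genes changed, most of them downward, while Sema4c rose. In IP 3 of 49 tested genes were higher and 11 lower, where 19.1% and 17.8% of all genes were called, and in input 6 of 50 were higher and 15 lower, where 15.4% and 16% were called. EphA receptors were 0 higher and 3 lower of 7 in IP, class 5 to 7 semaphorins 0 and 2 of 7, plexins 0 and 2 of 9, and ephrin-A ligands 1 and 2 of 4. The median over the genes was -0.15 in IP and -0.17 in input, beside -0.02 and -0.01 over all genes. Without TMM scaling the IP counts were 2 higher and 19 lower (all genes 1833 and 4022, 31.3% of the called ones higher in place of 51.7%), with a median over all genes of -0.16.

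Without LPS mouse 2 the calls numbered 26 in IP (8 higher and 18 lower) and 33 in input (9 and 24). Calls over all genes rose too. In IP they went from 2602 higher and 2430 lower of 13641 to 4043 and 4233 of 13494. In input they went from 2228 and 2320 of 14511 to 4082 and 4547 of 14319. Without vehicle mouse 1, 2 or 4 or LPS mouse 3 the calls in these families numbered 8, 8, 9 and 9 in IP. Without vehicle mouse 1, 2, 3 or 4 or LPS mouse 3 or 4 they numbered 11, 11, 9, 10, 9 and 12 in input. Among the markers of other cells, 6 of 13 for medium spiny neurons were lower in LPS IP (summed level 1629 to 2020 FPKM in vehicle and 1288 to 1820 in LPS mice), of the oligodendrocyte markers 5 of 10 rose and 1 fell, 3 of 5 tested for mural cells were lower and 1 higher, and 7 of 13 for astrocytes were higher (7840 to 8862 and 9165 to 9783 FPKM). In input 3 of 6 tested leukocyte markers were higher (4.43 to 15.8 and 21.2 to 36.9 FPKM), and 3 of 12 for microglia were higher and 5 lower. There 8 of 13 for medium spiny neurons were lower (3873 to 4109 and 3333 to 3699 FPKM), 7 of 13 for astrocytes were higher and 1 lower (1398 to 1439 and 1577 to 1814 FPKM), and 3 of 8 for oligodendrocyte precursors were lower and 1 higher (median log2 -0.54). Their part in the results was not tested.

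Sema4c, a membrane semaphorin that binds Plxnb2, had the largest rise among the genes tested in IP, and in input its rise was as large as that of Epha2. In IP it lay at 2.65, 2.15, 2.67 and 2.74 FPKM in vehicle mice and at 7.62, 3.51, 9.51 and 8.59 in LPS mice 1 to 4, a 2.9-fold rise (log2 1.53 ± 0.32, adjusted p = 0.0107). In input it lay at 3.76, 3.25, 4.09 and 3.86 and 9.41, 5.12, 9.98 and 10.6 FPKM (log2 1.21 ± 0.24, adjusted p = 0.00964). LPS mouse 2 was the lowest LPS mouse in both and still above all vehicle mice. Without it the log2 change was 1.90 in IP (adjusted p = 2.88e-06) and 1.48 in input (4.37e-06).

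Efna1 rose in IP from 1.01, 0.647, 1.65 and 1.37 to 1.7, 2.41, 2.23 and 2.24 FPKM (log2 1.02 ± 0.25, adjusted p = 0.0175). Its arms came close without overlapping, and without vehicle mouse 1 or LPS mouse 3 the call was lost, with an adjusted p of up to 0.0536. Sema3d had a smaller rise in IP (1.65, 1.52, 1.55 and 1.59 to 1.71, 2.42, 1.79 and 2.08 FPKM, log2 0.45), which was not called without TMM scaling or without vehicle mouse 2. Its input rise (log2 0.53, adjusted p = 0.04002) was lost without any of 7 of the 8 libraries, LPS mouse 2 excepted. Epha2 was below the testing limit in IP, with 0.102, 0.121, 0.126 and 0.271 FPKM in vehicle mice and 1.99, 0.351, 3.01 and 1.74 in LPS mice, all of them above the vehicle mice. In input it rose from 0.736, 0.403, 0.559 and 0.834 to 1.84, 1.56, 1.71 and 1.0003 FPKM (log2 1.21 ± 0.26, adjusted p = 0.0127).

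Ephb3, higher in IP than in input in controls, fell in LPS IP from 6.59, 7.41, 7.07 and 6.54 to 1.24, 6.23, 2.1 and 1.75 FPKM (log2 -1.39 ± 0.37, adjusted p = 0.0229). LPS mouse 2 was close to the vehicle mice and the other 3 were far below them. Without it the change was -1.81 (adjusted p = 2.38e-05), and without any of the other 7 libraries the adjusted p was above 0.05, up to 0.0651. Sema7a fell from 20.4, 21.9, 23.6 and 23.6 to 10.02, 15.6, 10.99 and 9.56 FPKM in IP (log2 -0.83 ± 0.11, adjusted p = 0.00242) and from 31.1, 35.2, 36.4 and 36.3 to 17.9, 30.9, 19.8 and 18.6 in input (log2 -0.65 ± 0.14). Its receptor Plxnc1 fell from 8.36, 9.37, 8.82 and 8.06 to 5.03, 6.73, 5.01 and 5.18 FPKM in IP (log2 -0.52 ± 0.08) and by -0.76 in input. For both genes LPS mouse 2 lay nearest to the vehicle mice, with no overlap.

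Sema6d fell in both fractions, from 24.4, 24.1, 26.8 and 25.5 to 13.6, 21.4, 16.3 and 15.3 FPKM in IP (log2 -0.47 ± 0.09) and by log2 -0.62 in input, without overlap in IP. Efna3 fell in IP from 9.29 ± 0.814 to 5.3 ± 0.436 FPKM (SD, n = 4, log2 -0.66). The EphA receptors Epha7 (log2 -0.65), Epha5 (-0.41) and Epha8 (-0.41) fell as well, the last with an adjusted p of 0.0354 that exceeded 0.05 without LPS mouse 1 or 3 or any vehicle mouse, up to 0.1001. In input Plxnb3 fell from 6.5, 6.55, 7.17 and 6.69 to 3.33, 3.99, 3.83 and 4.9 FPKM (log2 -0.69 ± 0.12) without overlap, and Plxna3 (-0.48) fell, while Plxna4 (0.40) and Epha10 (0.61) rose. The Plxna3 call was lost without any library other than that of LPS mouse 2, and the Plxna4 call without vehicle mouse 3 or 4 or LPS mouse 3.

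The LPS change in IP was higher than in input for 5 of 51 genes and lower for 2, where 5.53% and 2.9% of all genes differed. Of the genes called, Plxnb3 had the largest difference (0.82 ± 0.12, adjusted p = 0.00749). The number of such genes ran from 1 without LPS mouse 3 to 20 without LPS mouse 2, was 2 without vehicle mouse 3 and 3 without vehicle mouse 1, 2 or 4 or LPS mouse 1, and was 3 and 6 in place of 5 and 2 without TMM scaling (all genes 634 and 1091). Over all genes 2397 were higher and 2428 lower of 14777 without LPS mouse 2, in place of 824 and 433 of 14908. Of the pathway lists in LPS IP, 4 of 30 Eph and ephrin partners rose and 10 fell, with Ngef going from 157 ± 2.60 to 95.8 ± 10.7 FPKM (log2 -0.58). Of 33 plexin and neuropilin partners 10 rose and 4 fell, the steepest being Rnd1, a small GTPase that binds plexins (3.96 ± 0.272 to 43.5 ± 28.5 FPKM, log2 3.04). Of 17 netrin, Slit and repulsive guidance genes 0 rose and 4 fell (limma). In LPS input the counts were 3 and 6 of 29, 7 and 3 of 33, and 2 and 2 of 19.

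With Cre against floxed Kcnj10 the changes in IP were small and went both ways. Of 50 genes tested in IP 8 were higher and 7 lower, where 13.2% and 16.1% of all genes were called, and the largest log2 change of a gene above 1 FPKM was -0.45. Without TMM scaling 5 were higher and 10 lower (all genes 1249 and 2700, 31.6% of the called ones higher in place of 45.1%), and no named gene changed sign. Without TdTomato mouse 4 the calls numbered 9. Medium spiny neuron markers were higher in 12 of 13 in IP (1711 to 1823 FPKM in TdTomato and 2079 to 2145 in Cre mice) and oligodendrocyte markers lower in 9 of 10 (1215 to 1552 and 870 to 1064 FPKM). Microglia markers were lower in 5 of 9 tested, mural cell markers in 4 of 6, and astrocyte markers were 4 higher and 3 lower of 13. Their part in the result was not tested.

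Among the receptors Ephb2 fell from 3.73, 3.59, 3.63 and 3.71 to 2.94, 2.72, 2.44 and 2.31 FPKM (log2 -0.45 ± 0.08, adjusted p = 0.00223). Epha7 rose from 9.18, 9.57, 8.79 and 8.26 to 11.1, 12.5, 10.4 and 11.2 FPKM (log2 0.37 ± 0.06, adjusted p = 0.00229), and Epha4 rose from 66.03, 62.2, 66.7 and 64.8 to 71.9, 77.7, 78.7 and 74.4 FPKM (log2 0.25 ± 0.04, adjusted p = 0.000986). The arms were apart for each of these. Ephb3 rose from 4.38, 4.8, 4.76 and 4.88 to 6.06, 5.15, 6.16 and 6.24 FPKM (log2 0.35 ± 0.07). Epha2, below 1 FPKM on average and therefore outside the rule for naming genes, is added because its arms lay far apart: 1.26, 0.658, 0.842 and 0.888 FPKM in TdTomato mice and 0.0501, 0.113, 0.137 and 0.0987 in Cre mice (log2 -2.30 ± 0.24, adjusted p = 0.0001001). It reached the 0.5 FPKM needed for testing in the TdTomato libraries only. It was thus tested only because it was high in them, and its adjusted p is to be read with that limit.

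Of the ligands and plexins, Plxnb2 fell from 31.4, 34.9, 32.4 and 32.4 to 24.6, 26.6, 27.4 and 27.1 FPKM (log2 -0.28 ± 0.05) and Sema6a from 8.68, 9.42, 8.27 and 8.82 to 6.84, 7.05, 6.18 and 7.4 (log2 -0.32 ± 0.07), both with the Cre mice below all TdTomato mice. Efnb3 (log2 -0.29), Sema4c (-0.23) and Sema6d (-0.16) fell and Efnb2 (0.27) and Sema7a (0.23) rose. Sema4c, with an adjusted p of 0.048, was lost without any library other than that of Cre mouse 4, and also with the replicate block (0.0683), sex as a covariate (0.0579), median-of-ratios scaling (0.0535) or no filter (0.0768), and Sema6d without TdTomato mouse 4. In input limma called 0 of 50, with 3 at an unadjusted p below 0.05 and 0 called by voom, where 0.00706% of all genes were higher and 0.339% lower. The smallest p values in input were those of Plxnb2 (log2 -0.32, adjusted p = 0.231) and Sema4d (-0.39, adjusted p = 0.415), then Sema6d (-0.16, adjusted p = 0.531). The change in IP differed from that in input for 1 gene, Epha2 (-1.87 ± 0.36, adjusted p = 0.0264), where 0.624% of all genes were higher and 1.72% lower, and this call was lost with 1 FPKM added or without any TdTomato mouse or Cre mouse 2 or 3. Of the pathway lists in IP 7 of 30 Eph and ephrin partners rose and 2 fell, 7 and 7 of 33 plexin and neuropilin partners did so, and 3 and 3 of 17 netrin, Slit and repulsive guidance genes. Chn1 (102.9 ± 1.84 to 134.6 ± 3.498 FPKM, log2 0.42) and Ngef (113.9 ± 3.21 to 143.3 ± 3.08, log2 0.37) rose, and Met fell (2.07 ± 0.228 to 0.633 ± 0.0315, log2 -1.53).

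In the libraries labelled Itpr2-/- no gene of these families was called. In IP limma called 0 of 49, with 3 at an unadjusted p below 0.05, and in input 0 of 50, with 2, and voom called 0 in both. The background was 0% in each direction in IP, and 0% higher and 0.00709% lower in input. The smallest p in IP was that of Sema7a, at 13.6 to 15.5 FPKM in wild type and 15.2 to 17.0 in the libraries labelled knockout (log2 0.19, 95% interval 0.05 to 0.34, adjusted p = 0.794), and the arms overlapped. Ephb6 (log2 0.30, adjusted p = 0.794) and Epha7 (0.17, adjusted p = 0.849) came next. In input the smallest p was that of Efna3, at 21.4, 24.3, 24.1 and 24.4 FPKM in wild type and 19.2, 18.9, 21.3 and 23.01 in the libraries labelled knockout (log2 -0.18, adjusted p = 0.529), again with overlap. Sema7a (log2 0.19, adjusted p = 0.551) and Sema3g (-0.46, adjusted p = 0.601) followed. All log2 changes of the genes lay between -0.32 and 0.49 in IP and between -0.46 and 0.20 in input. The comparison of IP with input called 0 of these genes (1 at an unadjusted p below 0.05, 0 by voom) and 0% of all genes in each direction.

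In mice with rM3Ds 2 EphB receptors and a class 4 semaphorin were lower in IP after CNO. Of 49 genes tested 0 were higher and 3 lower, the former at 0 by limma and voom alike, where 3.32% of all genes were higher and 1.26% lower. Ephb3 lay at 4.63, 4.45, 5.63 and 4.68 FPKM in vehicle mice and at 1.68, 1.51, 2.2 and 2.11 in CNO mice, a fall to 0.399 of the vehicle level (log2 -1.32 ± 0.13, adjusted p = 0.000236). Ephb4 lay at 2.36, 2.34, 2.55 and 2.72 and 1.12, 1.09, 1.36 and 1.27 FPKM (log2 -0.97 ± 0.09, adjusted p = 0.000249). For both receptors all CNO mice were far below all vehicle mice. Sema4b lay at 9.21, 9.27, 9.67 and 12.5 and 5.02, 5.1, 7.44 and 7.15 FPKM (log2 -0.71 ± 0.15, adjusted p = 0.0284). Its arms were apart too, but without any vehicle mouse or CNO mouse 1 or 2, or with no filter, its adjusted p was above 0.05, up to 0.0777. Epha2, below the limit of testing in IP, was at 0.192, 0.256, 0.0797 and 0.181 FPKM in vehicle mice and 0.27, 0.352, 0.706 and 0.556 in CNO mice, with all CNO mice higher.

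In rM3Ds input limma called 0 of 50, with 4 at an unadjusted p below 0.05, where 0.57% of all genes were higher and 0.0209% lower. Ephb3 had the smallest p: vehicle mice held 1.44, 1.48, 1.73 and 1.36 FPKM and CNO mice 0.606, 0.75, 1.12 and 0.8287 (log2 -0.82 ± 0.18, adjusted p = 0.137). The arms did not overlap, and voom on recovered reads called it (adjusted p = 0.0431), as the 1 gene of these families it called there. Sema4b had log2 -0.29 (adjusted p = 0.425) and Epha2 0.50 (adjusted p = 0.471) in input. The change in IP was lower than that in input for 1 gene, Ephb4 (-0.77 ± 0.14, adjusted p = 0.0171), where 1.77% of all genes were higher and 0.427% lower, and the call was lost without vehicle mouse 2 or 4 or CNO mouse 1. In IP 1 of 30 Eph and ephrin partners rose (Pdzrn3, 8.66 ± 0.517 to 14.97 ± 2.62 FPKM, log2 0.78) and 1 fell (Rgs3, a regulator that binds ephrin-Bs, log2 -0.33). Of 33 plexin and neuropilin partners Mical1, which acts on actin downstream of plexins, fell (log2 -0.44), and of 17 netrin, Slit and repulsive guidance genes Rgma fell (26.8 ± 2.52 to 16.3 ± 2.75 FPKM, log2 -0.71). Of markers of other cells 1 of 10 for oligodendrocytes was higher and 1 of 6 for mural cells lower in IP, and 1 of 13 for astrocytes was lower (7160 to 8216 FPKM in vehicle and 6677 to 7467 in CNO mice). Their part in the result was not tested.

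In mice with hM3Dq Epha2 and several semaphorins were higher in IP after CNO, and the plexins Plxnb1, Plxnb2 and Plxnc1 were lower. Of 50 genes tested 8 were higher and 10 lower, where 24.3% and 21.1% of all genes were called, and in input 1 was higher and 1 lower of 50, where 2.68% and 1.04% were called. In IP 2 class 4 semaphorins rose and 2 fell of 6, 0 plexins rose and 3 fell of 9 (limma), and 0 ephrin-B ligands rose and 2 fell of 3. The median was -0.02, beside 0.00 over all genes. Astrocyte markers were themselves lower in 7 of 13 and higher in 1 (11153 to 11740 FPKM in vehicle and 7590 to 9940 in CNO mice), and 5 of 6 ependymal markers were lower (90.3 to 129.7 and 31.3 to 51.6 FPKM), as were 4 of 8 of oligodendrocyte precursors and 3 of 10 of interneurons. Their part in the results was not tested.

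Epha2 rose from a few reads a library. It lay at 0.0518, 0.0196, 0.0199 and 0.014 FPKM in vehicle IP, which is 3 to 10 recovered reads a library, and at 1.3, 3.76, 2.73 and 2.3 in CNO IP, which is 287 to 744 reads (log2 4.32 ± 0.32, adjusted p = 4.08e-06). All CNO mice were far above all vehicle mice. Only the CNO libraries reached the 0.5 FPKM needed for testing, so Epha2 was tested here only because it was high in them, and its adjusted p is to be read with that limit. The size of the fold depends on the value added before the log: it was 19.9 with 0.1 FPKM, 3.35 with 1, 71.4 with 0.01 and 93.99 by voom on reads. With 0.1 FPKM it was the largest fitted change of the families in any experiment, and with 1 FPKM it was smaller than that of Sema3b in QA IP (3.92). In input Epha2 was at 1.16, 0.747, 0.628 and 0.709 and 0.826, 1.95, 1.37 and 1.27 FPKM, which overlap, and was not called (log2 0.64). The change was larger in IP than in input (difference 3.76 ± 0.26, adjusted p = 9.24e-06), and with 1 FPKM added the difference was 1.48.

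Semaphorins of several classes rose in hM3Dq IP. Sema7a went from 16.6, 14.2, 17.1 and 16.7 to 23.9, 25.6, 21.04 and 27.8 FPKM (log2 0.64 ± 0.09, adjusted p = 0.000373), Sema4b from 15.7, 14.8, 14.5 and 17.6 to 27.5, 26.7, 22.3 and 20.3 (log2 0.66 ± 0.12) and Sema4c from 2.2, 2.15, 2.17 and 2.3 to 3.6, 4.2, 3.08 and 3.19 (log2 0.68 ± 0.12). In each of them the CNO mice were above all vehicle mice. Sema3d (log2 0.56), Ephb2 (0.32) and the receptor Nrp2 (1.58, 1.68, 1.38 and 1.29 to 3.31, 1.97, 2.35 and 2.58 FPKM, log2 0.77 ± 0.16) rose too. Nrp2 was also the gene that rose in input, from 1.66, 1.67, 1.13 and 1.43 to 2.45, 2.33, 2.4 and 2.78 FPKM (log2 0.73 ± 0.15, adjusted p = 0.0287), and Efnb3 the gene that fell there (log2 -0.24, adjusted p = 0.0348). Both arms were apart. The Nrp2 call in input was lost without vehicle mouse 3 or 4 or CNO mouse 1, 3 or 4, and the Efnb3 call without vehicle mouse 2, 3 or 4 or CNO mouse 2, 3 or 4.

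The plexins that fell were Plxnb1 and Plxnb2, the most enriched plexins of the pull-down, and Plxnc1. Plxnb1 went from 55.2, 56.2, 56.8 and 57.6 to 41.2, 31.9, 30.8 and 26.4 FPKM in IP (log2 -0.77 ± 0.13, adjusted p = 0.000834) and Plxnb2 from 53.4, 50.6, 47.8 and 47.98 to 33.6, 40.3, 30.97 and 29.2 (log2 -0.54 ± 0.11). Vehicle mice were tightly grouped and CNO mice spread below them. In input Plxnb1 was not called (log2 -0.29, adjusted p = 0.0835), although voom called it (adjusted p = 0.0159). Plxnc1 went from 7.64, 7.6, 6.83 and 6.63 to 4.89, 5.08, 4.98 and 5.47 FPKM (log2 -0.44 ± 0.07) while its ligand Sema7a rose. Efna2 (3.23, 3.59, 3.82 and 3.72 to 1.53, 1.78, 1.9 and 3.17 FPKM, log2 -0.76 ± 0.18) and Sema4a (9.29, 8.96, 9.98 and 9.1 to 7.002, 5.59, 6.84 and 6.32 FPKM, log2 -0.49 ± 0.08) fell without overlap. Sema4d (log2 -0.36), Sema6d (-0.33) and Ephb1 (-0.28) fell least among the named genes. The Sema4d call was lost without vehicle mouse 1 or 2 or CNO mouse 3 or 4, and the Ephb1 call without vehicle mouse 1, 3 or 4 or CNO mouse 3 or 4.

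The change in IP was higher than that in input for 3 of 51 genes and lower for 8, where 12% and 9.38% of all genes differed. Of the partners in hM3Dq IP 14 of 33 for plexins and neuropilins rose and 1 fell. Met went from 1.16 ± 0.149 to 20.3 ± 1.43 FPKM (log2 4.06), and Dpysl3, of the collapsin response mediator proteins, which act downstream of Sema3a, from 9.67 ± 0.454 to 33.5 ± 1.91 (log2 1.82). Of 30 Eph and ephrin partners 6 rose and 8 fell, with the exchange factor Arhgef19 going from 15.04 ± 0.557 to 4.86 ± 0.936 FPKM (log2 -1.59). Of 17 netrin, Slit and repulsive guidance genes 2 rose and 3 fell, the steepest being Rgma (41.9 ± 1.94 to 13.9 ± 1.75 FPKM, log2 -1.55). In input the counts were 3 and 0 of 34, 0 and 1 of 29 and 0 and 1 of 19.

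**Figure D3:**
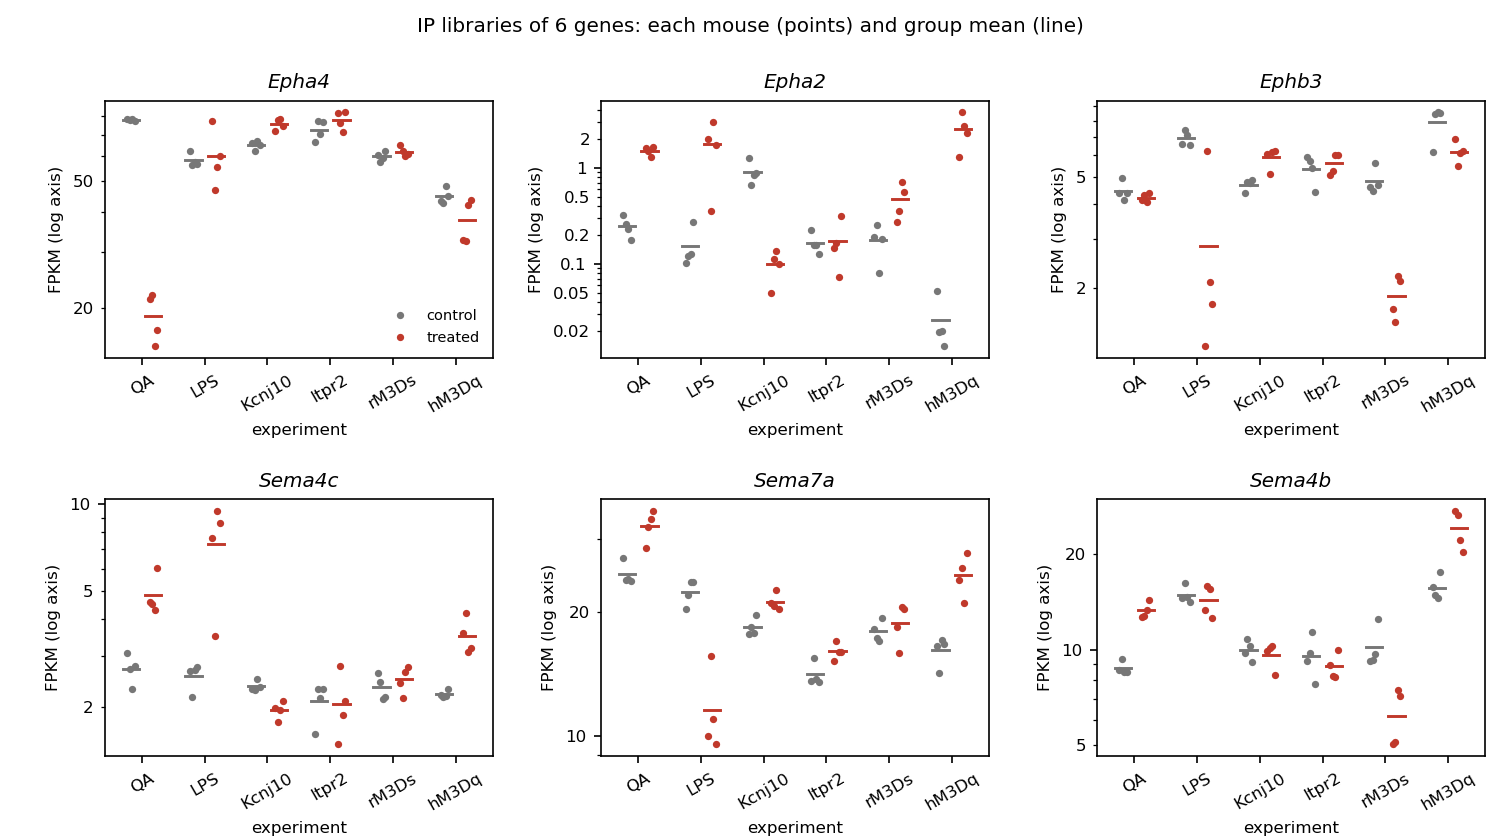
FPKM in IP libraries on a log axis for Epha4, Epha2, Ephb3, Sema4c, Sema7a and Sema4b in the 6 experiments: points are mice (grey control, red treated) and lines are means of 4 mice. Epha4 falls to 15.2 to 22.0 in QA mice, Epha2 goes from at most 0.0518 to at least 1.3 with hM3Dq and CNO, and the LPS mouse near the vehicle level of Ephb3 and Sema4c is mouse 2.

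Across the experiments, 4 of the 53 genes were called in no IP comparison, 19 in 1, 16 in 2, 11 in 3 and 3 in 4. In input the numbers were 6, 29, 17 and 1 for 0 to 3 experiments. The same counts were not made over all genes, so whether these families differ from other genes in this is not known. Each experiment has its own controls. The genes called in 4 IP comparisons were all semaphorins of the membrane and did not keep a direction. Sema4c rose in QA (log2 0.78), LPS (1.53) and hM3Dq (0.68) and fell in Kcnj10 (-0.23), the last a call that 11 of 16 alternatives lost. Sema7a rose in QA (0.35), Kcnj10 (0.23) and hM3Dq (0.64) and fell in LPS (-0.83). Sema6d rose in QA (0.97) and fell in LPS (-0.47), Kcnj10 (-0.16) and hM3Dq (-0.33). Ephb3 fell in LPS and rM3Ds and rose in Kcnj10, and Ephb2 rose in QA and hM3Dq and fell in Kcnj10. Epha2 rose in IP of QA and hM3Dq and fell in Kcnj10. In each of these only the libraries of the higher arm reached the 0.5 FPKM needed for testing. Epha2 was thus tested only because it was high in that arm, and these calls are to be read with that limit.

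**Figure D4:**
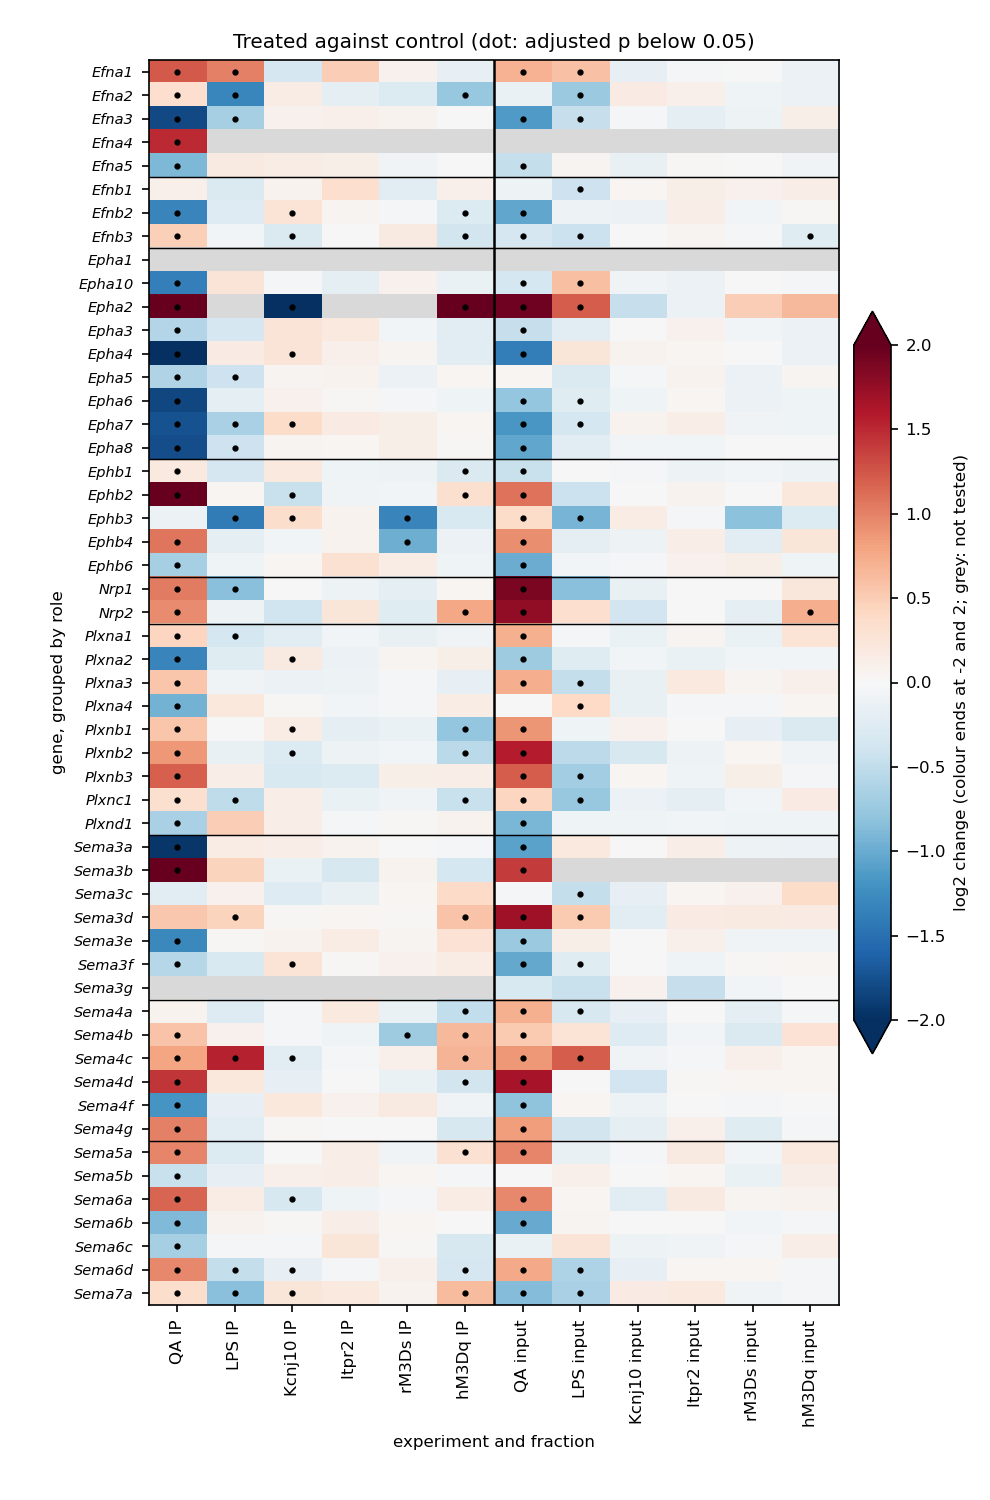
Log2 change of treated against control for all genes (rows, grouped by role) in IP and input of the 6 experiments (columns), with red for higher, blue for lower, grey for not tested and a dot for an adjusted p below 0.05. The QA columns carry 46 and 43 dots, the Itpr2 columns and the Kcnj10 and rM3Ds input columns carry none, and colour ends at -2 and 2, which genes such as Sema3b in QA IP and Epha2 in Kcnj10 and hM3Dq IP exceed.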

How the data were processed

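RNA from 48 mice was measured in 96 libraries, IP and input of each mouse. Per the labels, libraries were made with the TruSeq Stranded kit after RiboZero Gold depletion. STAR, HTSeq and mm10 are named per the submitters' processing notes, with no versions. The deposited FPKM were made by the authors, and nothing in the files names their unit, which was read from the values. In each library the values of 21500 genes above 0 were whole multiples of the value of 1 read (100% within 0.001 reads), and these recovered reads gave the depths and the TMM factors.

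The members and the gene lists (11 of cell markers and 3 of pathways, 195 genes, 193 in the files) were chosen with earlier results of these data known. Treated and control mice were compared within IP and within input of each experiment, the change in IP was compared with that in input, and IP was compared with input over the 24 control mice, 19 comparisons in all. Each was fitted with limma 3.58.1 (R 4.3.3, trended variance) on log2 of TMM-scaled FPKM plus 0.1, with the mouse as a block where both fractions entered, and adjusted by Benjamini-Hochberg over all genes tested. P values of treated against control within a fraction rest on the spread between the 4 mice of a group. Those of IP over input in controls, and of differences between fractions, rest on the spread between mice of the ratio of IP to input. In the controls this spread is over 24 mice. Limma draws the variance of each gene toward a trend over all genes. Intervals cover 95%.

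Genes named are those called with no overlap between arms and at least 1 FPKM in the higher arm, up to 8 in each direction in IP, 5 in input and 5 for differences between fractions, the 8 largest ratios in each direction in controls, the 4 largest changes per comparison in pathway lists, and the 3 smallest p where fewer than 3 were called. Exceptions were chosen after their values were seen: Epha2 where it was low or untested, Ephb3, Efnb2, Efnb3, Sema3d, Nrp1, Nrp2, Plxnb2 and Sema7a where set beside another result, and the genes called in 4 experiments. The alternatives were another pseudocount, no filter, deposited or median-of-ratios scaling, voom on recovered reads, a replicate block, sex as a covariate and each library left out. Fits and read recovery were tested on simulated data. For the fits the simulated spread beyond counting noise was the same for all genes, and no mouse effect was put in. They therefore do not show how the mouse block performs. Pairs of replicates differed by more than counting noise. Figures were drawn with matplotlib 3.10.9 in Python 3.11.15.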

Additional observations from a re-analysis of the deposited data

Results flagged for a closer look

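With 0.1 FPKM added before the log, differences between the change in IP and the change in input were largest for Epha2. In hM3Dq mice its log2 change was 3.76 higher in IP than in input (adjusted p = 9.24e-06, limma with the mouse as a block, as for all differences here), and in Kcnj10 mice it was -1.87 (adjusted p = 0.0264). With 1 FPKM added these differences were 1.48 and -0.63, and the Kcnj10 call was lost. That call was also lost without any TdTomato mouse or Cre mouse 2 or 3. In hM3Dq mice Sema7a differed by 0.64 (adjusted p = 0.000330; log2 0.64 in IP and -0.03 in input) and Sema4c by 0.61 (0.0120). Lower in IP than in input there were Efna2 by -0.68 (0.00964), Plxnc1 by -0.63 (0.000906; -0.44 and 0.16), Plxnb1 by -0.51 (0.0119), Plxnb2 by -0.50 (0.00328) and Sema4a by -0.50 (0.0123). In rM3Ds mice Ephb4 differed by -0.77 (0.0172).

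After QA the difference was 1.41 for Sema3b (adjusted p = 0.000121), 1.27 for Sema7a (3.06e-06), 1.10 for Ephb2 (4.45e-05), 0.86 for Efnb3 (6.61e-05) and 0.68 for Ephb1 (8.05e-06). Sema7a, Efnb3 and Ephb1 had opposite signs in the fractions, with log2 0.19 in IP and -0.44 in input for Ephb1. It was -1.09 for Sema3d (0.00134), -0.99 for Epha6 (0.000125), -0.98 for Epha10 (0.00162), -0.89 for Plxna4 (9.96e-05; -0.94 in IP and 0.00 in input) and -0.83 for Sema3a (0.00169). After LPS it was 0.82 for Plxnb3 (0.00749; 0.14 and -0.69), 0.57 for Plxnd1 (0.0127), 0.55 for Sema3c (0.0147), 0.46 for Ephb2 (0.0405), 0.37 for Efnb3 (0.0316), -0.34 for Ephb1 (0.0352) and -0.30 for Epha7 (0.0466), and the number of calls there turned on single mice.

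In 9 of 186 groups of 4 libraries 1 library lay far from the others (Dixon's 95% value), and chance alone gives about 1 in 20. LPS mouse 2 accounted for 2 of the 9: Plxnc1 was 6.73 FPKM in its IP (others 5.01 to 5.18) and Sema7a was 30.9 in its input (others 17.9 to 19.8). Sema4c was 2.15 in IP of LPS vehicle mouse 2 (others 2.65 to 2.74). Ephb3 was 5.15 in IP of Cre mouse 2 (others 6.06 to 6.24) and Sema6d was 14.8 in input of TdTomato mouse 2 (others 16.1 to 16.4). Sema7a was 15.5 in IP of Itpr2 wild-type mouse 2 (others 13.6 to 13.8) and Efna3 was 21.4 in input of wild-type mouse 1 (others 24.1 to 24.4). Sema4b was 12.5 in IP of rM3Ds vehicle mouse 4 (others 9.21 to 9.67), and Epha2 was 0.0518 in IP of hM3Dq vehicle mouse 1 (others 0.0140 to 0.0199).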

How the results depend on the processing

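Of 136 named results, 110 kept direction and side of the threshold under all alternatives run, and of 2148 single alternatives 136 lost a call, 2 gained one and 0 changed sign. With each library left out in turn, calls ran from 8 to 26 in LPS IP, 9 to 33 in LPS input, 9 to 16 in Kcnj10 IP and 0 to 2 in hM3Dq input, and differences between fractions from 1 to 20 in LPS and 0 to 1 in Kcnj10 and in rM3Ds. Fewer mice enter these fits. Voom called 1 gene in rM3Ds input in place of 0, and 2 differences between fractions in Kcnj10 in place of 1. With no filter hM3Dq input had 1 call, where more genes were tested. With a pseudocount of 1 the differences between fractions numbered 0 in Kcnj10 and 2 in rM3Ds. The cause of the other shifts was not tested.

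The labels do not say what a replicate number shares, and in no comparison did all 4 same-numbered pairs correlate above 0.1, although 3 of 4 did in Kcnj10 IP (up to 0.44), rM3Ds IP (up to 0.67) and rM3Ds input (up to 0.44). The main fits leave the replicate number out, and whether some pairs share a batch was not tested. In Kcnj10 the mouse numbers fell in an earlier and a later range, each holding both arms. In Itpr2 some wild-type mice had much later numbers than the other mice. What these ranges stand for is not stated, and they were not fitted as such. With the replicate number as a block calls were 46 in QA IP, 41 in QA input, 13 in LPS IP, 14 in LPS input, 16 in Kcnj10 IP, 3 in rM3Ds IP, 19 in hM3Dq IP and 0 in hM3Dq input. The named calls that the block lost were Sema4c in Kcnj10 IP, Epha8 and Sema3d in LPS IP, Sema3d in LPS input, Ephb1 in hM3Dq IP, and Nrp2 and Efnb3 in hM3Dq input. Without the mouse block the differences between fractions numbered 28 in QA, 0 in LPS and 7 in hM3Dq, and the control comparison had 44 calls. Sex could not be fitted in LPS and hM3Dq, where all mice were male. In QA input the share of called genes that were higher was 58.6% on the deposited scale (23 members higher and 19 lower) and 47.5% with TMM (23 and 20). In hM3Dq vehicle IP, Epha2 rests on 3 to 10 reads.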
